A study of Mus musculus with 9 samples.

Results

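The genes described here are 6 protease inhibitor genes, the 5 Serpina1 paralogs (Serpina1a, Serpina1b, Serpina1c, Serpina1d and Serpina1e) and Pzp, out of 35013 genes in each of 2 deposited tables. They were chosen by symbol, with their higher values in Tomato+ than in Tomatoneg cells already known, so these values are given as a description with no test. RNA-Seq was performed on epithelial cells sorted from the small intestine of 4- to 6-week-old mice of 1 genotype, Neurog3Cre-FoxO1 f/f; Rosa26tdtomato (NFKO), in which Cre driven by Neurog3 deletes floxed FoxO1 and switches on a red reporter in Neurog3-derived cells. Epcam-stained cells were sorted by the reporter and by the surface protein CD24 into CD24negTomato+, CD24+Tomato+ and Tomatoneg cells, with 3 biological replicates of each (9 libraries). One table holds CD24negTomato+ and Tomatoneg, the other CD24+Tomato+ and the same Tomatoneg libraries. All 9 libraries carry the floxed allele and the Cre. A control with intact FoxO1 was not analysed here, so the reporter, the lineage and the deletion cannot be told apart.

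Serpina1 genes encode alpha-1 antitrypsin, a secreted serpin that traps serine proteases such as neutrophil elastase by offering them an exposed bait segment, the reactive centre loop. Humans have a single SERPINA1 gene, whereas mice carry several copies whose products differ mainly at that loop. Pzp encodes pregnancy zone protein, a large secreted inhibitor of the alpha-2-macroglobulin family that physically traps proteases of several classes. Both kinds of inhibitor are best known as liver plasma proteins, and alpha-1 antitrypsin is also made by some epithelial cells of the gut, including Paneth and endocrine cells.

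In the GENCODE annotation of GRCm38 the 5 paralogs lie within 230820 bases at chr12:103728156-103958975, all on the minus strand. Serpina1b was annotated at chr12:103728156-103830373, a span that contains Serpina1d at chr12:103763594-103773592. Serpina1a (chr12:103853589-103863562), Serpina1c (chr12:103894926-103904887) and Serpina1e (chr12:103946931-103958975) follow. Pzp lies at chr6:128483567-128526720, also on the minus strand, and its longest coding transcript has 36 exons and 4681 bases, against 1361 to 1762 bases for the Serpina1 paralogs. An unprocessed pseudogene, Gm8893 (chr12:103817856-103822243), lies inside the Serpina1b span. Antisense genes overlap Serpina1c (B430119L08Rik) and Pzp (Gm10069), and the libraries' strandedness is not given in the sources used here.

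The coding sequences of the 5 paralogs were 96.3% to 98.5% identical over the 10 pairs (median 96.6%), and 86 of 1239 aligned coding positions (6.94%) varied. The differences were densest between coding bases 1101 and 1160, near the 3′ end of the coding sequence, where serpins encode the reactive centre loop. In this window of 60 bases 18 positions varied, against a median of 4 over all such windows. Most of the 86 variable positions lie outside this window, so reads elsewhere can also tell the paralogs apart. The stretch is shown because the differences are densest there, with capitals at the bases that differ from Serpina1b:
Serpina1b: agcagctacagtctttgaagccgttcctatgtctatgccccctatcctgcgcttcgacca
Serpina1a: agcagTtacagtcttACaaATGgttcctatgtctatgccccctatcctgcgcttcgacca
Serpina1c: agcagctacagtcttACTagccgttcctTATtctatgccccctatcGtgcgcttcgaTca
Serpina1d: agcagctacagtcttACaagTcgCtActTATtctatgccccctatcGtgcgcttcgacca
Serpina1e: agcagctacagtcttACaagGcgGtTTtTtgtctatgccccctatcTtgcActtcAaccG
Serpina1a differed from Serpina1b at 6 of these bases, Serpina1c at 8, Serpina1d at 9 and Serpina1e at 11.

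The paralogs share much of their sequence, and the program that made the values (kallisto) divides reads that fit several transcripts among them. Its unit of matching is a word of 31 bases by default. Of the words in Serpina1b transcripts 55.3% occurred in no other gene, against 45.8% for Serpina1e, 35.3% for Serpina1d, 34.8% for Serpina1a and 14.2% for Serpina1c. Serpina1c shared 77.5% of its words with Serpina1a and 53.0% with Gm8893. For Pzp 96.2% of words were its own, and the remainder were shared with the antisense gene. The value of a single Serpina1 paralog is therefore uncertain, least so for Serpina1b and most so for Serpina1c, and the 5 values were also summed in each library. Of the words of a paralog 25.4% (Serpina1b) to 64.2% (Serpina1c) also occurred in Gm8893 or the antisense gene B430119L08Rik. Reads assigned to those genes are not in the sum.

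**Figure D1:**
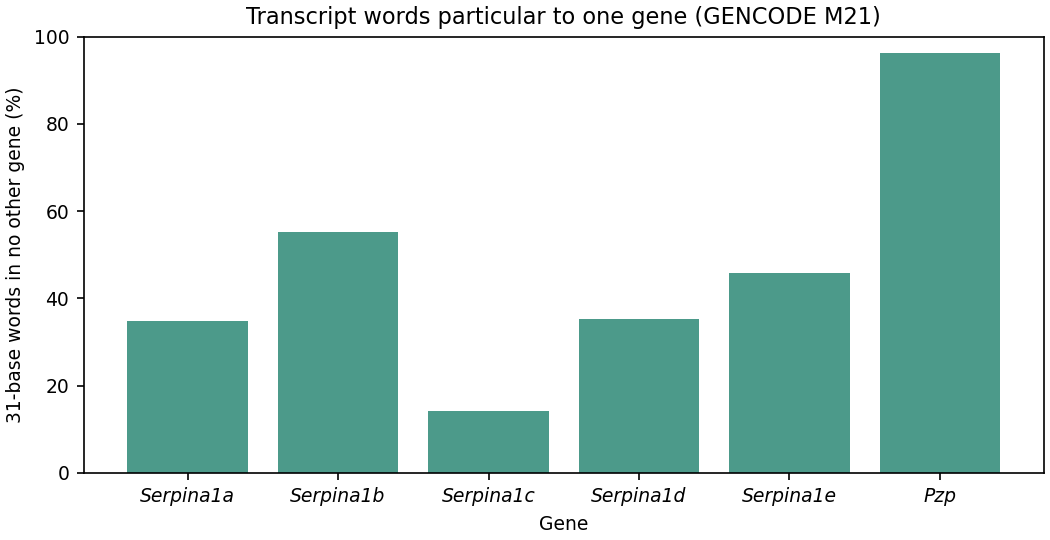
Bars give, for each gene on the x axis, the percent of 31-base words of its transcripts found in no other gene (y axis, 0 to 100%). Pzp stands at 96.2% and the Serpina1 paralogs between 14.2% and 55.3%, with Serpina1c lowest.

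The RefSeq promoters (GRCm38.p6, found for 6 of 6 genes) were compared because all 5 paralogs were higher in Tomato+ than in Tomatoneg cells. A block of 55 bases was identical in all 5, and among 32851 promoter windows it occurred in these 5 alone. It is printed in capitals within the 250 bases upstream of Serpina1b (chr12:103738190-103738439, minus strand) and Serpina1c (chr12:103904951-103905200, minus strand), whose levels are set side by side later. For Pzp (chr6:128526721-128526970, minus strand) the capitals mark both matches to GTTAAT, the half-site of HNF1 factors, on either strand:
Serpina1b: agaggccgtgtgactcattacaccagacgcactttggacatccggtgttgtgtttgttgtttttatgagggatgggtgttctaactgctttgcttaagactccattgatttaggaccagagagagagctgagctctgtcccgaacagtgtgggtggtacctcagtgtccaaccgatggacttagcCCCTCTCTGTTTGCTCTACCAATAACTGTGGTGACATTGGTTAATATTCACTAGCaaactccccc
Serpina1c: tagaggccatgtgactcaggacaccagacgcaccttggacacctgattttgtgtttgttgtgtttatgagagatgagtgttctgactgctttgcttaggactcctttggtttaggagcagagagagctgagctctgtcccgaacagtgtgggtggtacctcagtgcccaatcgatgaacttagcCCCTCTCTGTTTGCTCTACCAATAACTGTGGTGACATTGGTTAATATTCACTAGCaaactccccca
Pzp: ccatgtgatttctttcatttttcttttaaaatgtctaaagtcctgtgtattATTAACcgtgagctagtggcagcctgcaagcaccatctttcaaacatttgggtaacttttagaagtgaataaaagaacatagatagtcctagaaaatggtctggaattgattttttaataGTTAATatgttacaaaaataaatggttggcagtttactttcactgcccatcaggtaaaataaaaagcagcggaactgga
The letters GTTAAT lie inside the shared block, so all 6 promoters held them on one strand or the other, against 6.43% of all promoters of this length. GTAAACA, a form of the box bound by FOXO factors, was in 0 of 6 (3.17% of all promoters). Only these exact letters were searched, so other forms of the box are not shown to be absent. TTGCGCAA, a C/EBP site, was also in 0 of 6 (0.164%), and a consensus NF-kappaB site was in 0 of 6 (0.140%). Other forms of these sites are likewise not shown to be absent. Such letters are rare in all promoters, and the 5 Serpina1 promoters are near copies (92.1% to 98.0% identical). Nothing is therefore read from the counts of 0. Both strands were searched, and the 5 Serpina1 matches are 1 shared sequence, not separate occurrences.

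The libraries held an estimated 27723742 to 39234462 reads in Tomato+ and 19158348 to 24368832 in Tomatoneg cells. Tomatoneg replicate 1, listed at 0 for several genes below, had 13025 genes above 0, against 16008 in replicate 2 and 15644 in replicate 3. How this bears on the fold changes against Tomatoneg was not tested. The values are normalized counts, estimated reads divided by the authors' scaling factors. By the most frequent low value of each library, 3 reads were worth an estimated 2.10 to 2.92 in Tomato+ and 3.23 to 4.29 in Tomatoneg libraries. The scaling varied by gene, so these figures and the read totals are approximate. Foxo1, the targeted gene, was 467, 274 and 371 in CD24negTomato+ against 695, 518 and 424 in Tomatoneg (log2 fold change -0.56, limma adjusted p = 0.427). It was 319, 193 and 201 in CD24+Tomato+ against 748, 529 and 444 (log2 fold change -1.27, limma adjusted p = 0.0579, or 0.0219 with the replicate number as a block). Values cover the whole gene, not the deleted part alone. Enteroendocrine cell (EEC) markers (10 of 10) and goblet markers (8 of 8) were higher than in Tomatoneg without overlap in both Tomato+ populations. Paneth markers were higher in CD24+Tomato+ (7 of 7) and 4 of 7 were lower in CD24negTomato+. In both comparisons 6 of 7 lymphocyte markers were lower in Tomato+ cells. Over all genes tested, 10.6% in CD24negTomato+ and 14.4% in CD24+Tomato+ were lower without overlap.

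All 6 inhibitor genes had higher values in every Tomato+ library than in any Tomatoneg library, in both tables. Over all genes tested, such higher values without overlap occurred in 14.7% of 13420 genes for CD24negTomato+ and in 21.6% of 13874 genes for CD24+Tomato+. Nothing is read from this count, since the genes were chosen for it. All 6 also passed the filter on low values, a mean of at least 10 over 6 libraries, which Serpina1a, Serpina1d and Serpina1e passed through the Tomato+ group alone. In bulk samples, fewer cells of a type and less RNA per cell cannot be told apart.

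The summed Serpina1 value, in which reads divided among the paralogs are added together again, was 5412, 2090 and 2351 in CD24negTomato+ replicates 1, 2 and 3. In Tomatoneg it was 429, 301 and 334. The log2 fold change was 3.09, with same-numbered pairs between 2.79 and 3.66, and the ratio of the means was 9.26. In CD24+Tomato+ the sum was 11867, 4197 and 4910 against 462, 308 and 351 in Tomatoneg. There the log2 fold change was 4.08 (pairs 3.76 to 4.68) and the ratio of the means was 18.7. Replicate 1 was the highest in each of the 3 groups, by 2.59 times over the lowest library in CD24negTomato+ and 2.83 times in CD24+Tomato+.

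Pzp followed another pattern. It was 1930, 2966 and 821 in CD24negTomato+ against 43.5, 7.29 and 5.14 in Tomatoneg, a log2 fold change of 6.996 with pairs between 5.44 and 8.48. In CD24+Tomato+ it was 171, 127 and 231 against 39.5, 6.29 and 4.55, a log2 fold change of 3.87 with pairs between 2.09 and 5.38. Tomatoneg replicate 1 was the highest of the Tomatoneg libraries for Pzp and no Tomato+ library fell below 127.

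Serpina1b was the paralog with a clear level in Tomatoneg cells. Its values were 3983, 1230 and 1650 in CD24negTomato+ against 429, 212 and 300 (log2 fold change 2.73). In CD24+Tomato+ they were 3426, 1186 and 1752 against 462, 216 and 314 (log2 fold change 2.60). Of the 4 paralogs given a fold it had the smallest in both tables, and the highest level in Tomatoneg.

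Serpina1c was 464, 192 and 212 in CD24negTomato+ and 0, 71.6 and 29.9 in Tomatoneg (log2 fold change 4.35). In CD24+Tomato+ it was 4271, 1445 and 1769 against 0, 73.4 and 31.4 (log2 fold change 7.37). The 0 of Tomatoneg replicate 1 carries much of both values, since without that library they were 2.50 and 5.50.

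Serpina1e was 653, 463 and 327 in CD24negTomato+ and 2724, 931 and 838 in CD24+Tomato+. Its Tomatoneg values were 0, 11.7 and 4.61 in the former table, giving log2 fold changes of 6.80 and 8.27, or 5.78 and 7.23 without Tomatoneg replicate 1. Serpina1a was 132, 88.2 and 81.7 in CD24negTomato+ and 912, 380 and 246 in CD24+Tomato+, with 1 of 3 Tomatoneg libraries above 0, at 6.45 in the CD24negTomato+ table. Its log2 fold changes of 5.67 and 7.81 ranged from 3.20 to 7.93 and from 5.25 to 10.08 over the settings tried. Serpina1d was 180, 118 and 79.3 in CD24negTomato+ and 534, 254 and 304 in CD24+Tomato+, and was listed at 0 in all 3 Tomatoneg libraries, so no fold is given.

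**Figure D2:**
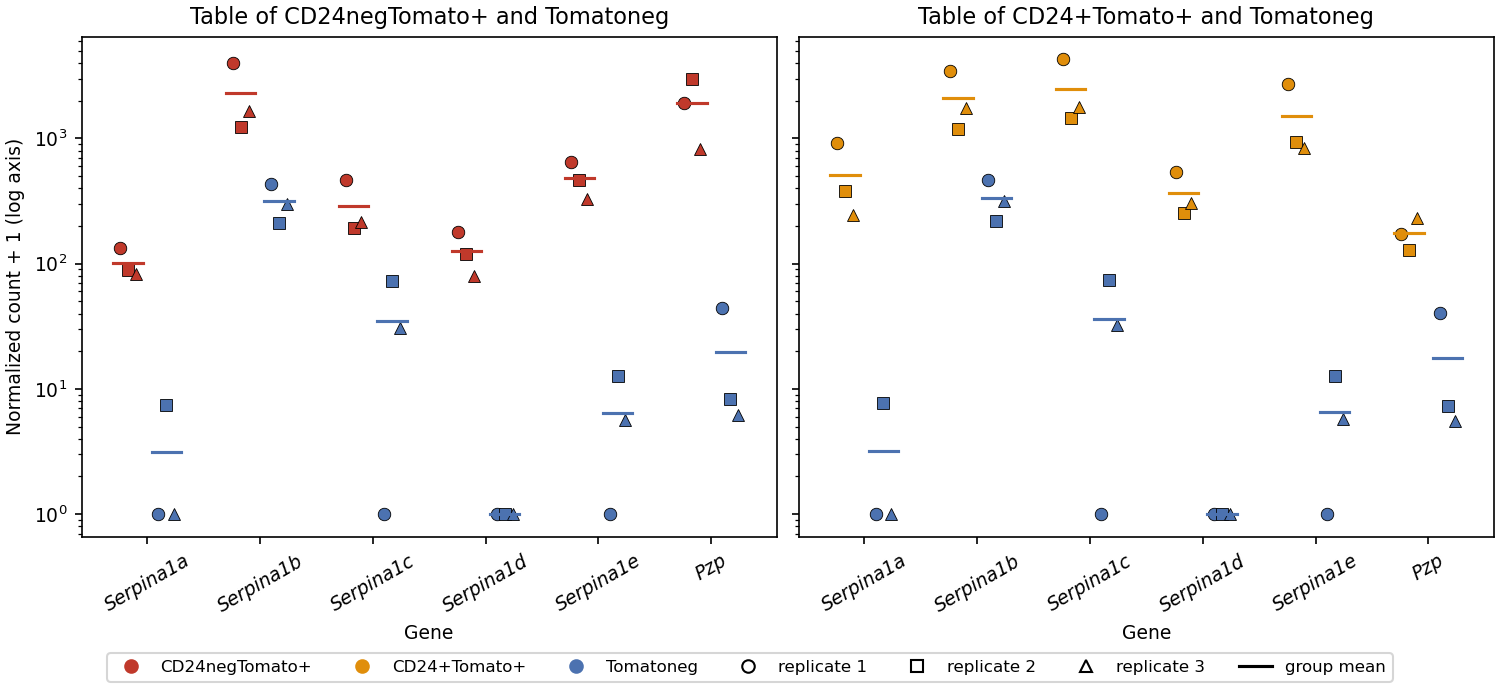
Points give the normalized count plus 1 (log y axis) of each gene (x axis) in every library, coloured by sorted group and shaped by replicate, with lines at the group means, for the table of CD24negTomato+ (left) and that of CD24+Tomato+ (right). A value of 1 on the axis is a count of 0. Every Tomato+ point lies above every Tomatoneg point of its gene, and Pzp stands far higher on the left (821 to 2966) than on the right (127 to 231).

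Each paralog was also taken as a share of the summed Serpina1 value of its library. Serpina1b made up 67.5% ± 7.74 (SD, n = 3) of the sum in CD24negTomato+, 30.9% ± 4.12 in CD24+Tomato+ and 86.6% ± 15.1 in Tomatoneg. Serpina1c made up 8.93% ± 0.325 in CD24negTomato+ (8.57% to 9.19%) and 35.5% ± 0.909 in CD24+Tomato+ (34.4% to 36.0%), 2 ranges that do not overlap. Serpina1e was 16.0% ± 5.36 and 20.7% ± 3.20, whose ranges overlap, and Serpina1a was 3.38% ± 0.892 and 7.25% ± 2.06, whose ranges do not. Serpina1d was 4.11% ± 1.31 and 5.59% ± 0.942, with overlapping ranges. A share is taken within 1 library, so a factor common to all genes cancels, but one that depends on the gene does not. The same Tomatoneg libraries gave shares within 0.0784 percentage points in both tables. An exact permutation test of 3 against 3 libraries cannot go below p = 0.10, and none was run across the separately scaled tables. How the division of shared reads among paralogs bears on these shares was not tested. Gm8893 was named after its values were seen because it shares sequence with the paralogs, from 24.2% of the words of Serpina1b to 53.0% of those of Serpina1c. It was 11.4, 17.1 and 11.8 in CD24negTomato+, 86.0, 35.0 and 29.8 in CD24+Tomato+ and 0 in all 3 Tomatoneg libraries.

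**Figure D3:**
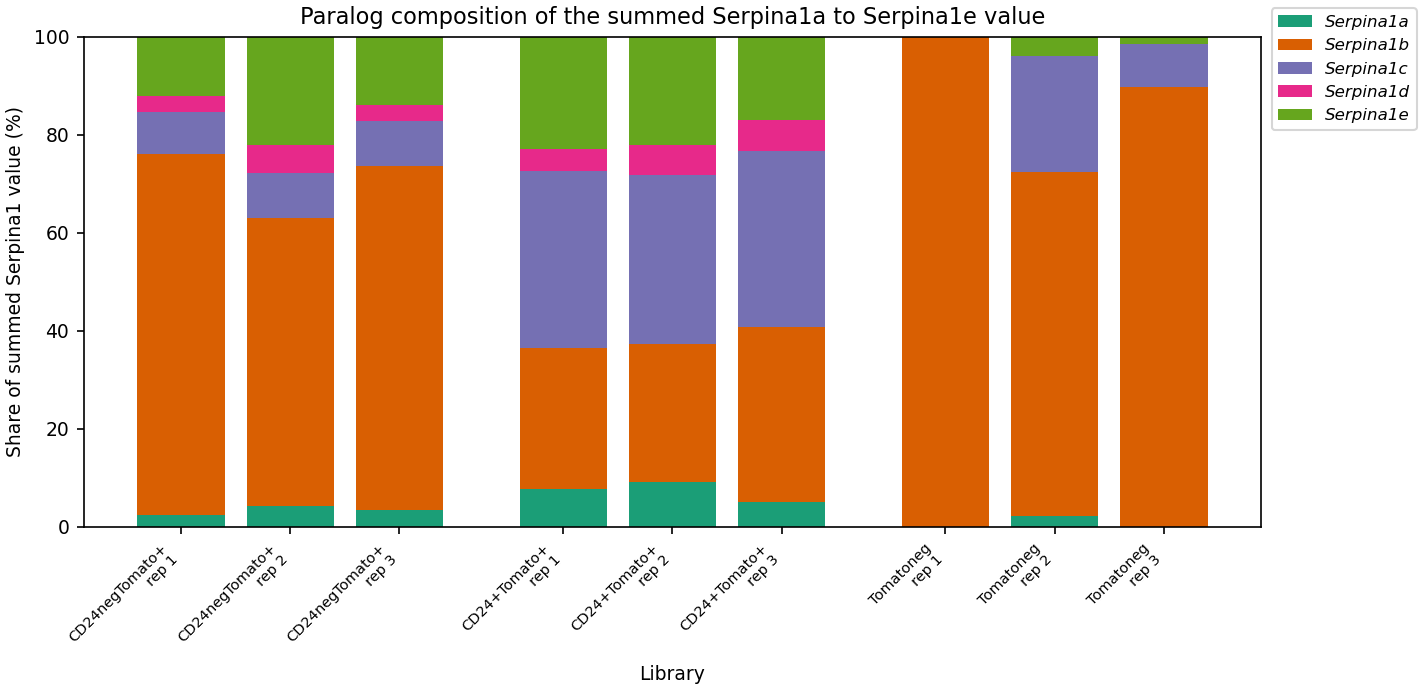
Stacked bars give the percent of the summed Serpina1 value (y axis) assigned to each of the 5 paralogs in each of the 9 libraries (x axis, by group and replicate). Serpina1b takes most of every CD24negTomato+ and Tomatoneg bar, and Serpina1c widens from about 9% in CD24negTomato+ to 34.4% to 36.0% in CD24+Tomato+.

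To set the Tomato+ populations side by side, each value was divided by its library's sum of normalized counts and multiplied by 1000000 (CPM). Serpina1b was 44.8, 54.4 and 141 CPM in CD24negTomato+ from lowest to highest, and 43.1, 60.8 and 152 in CD24+Tomato+, a ratio of means of 1.06 with overlapping groups. That ratio was 0.649 without CD24+Tomato+ replicate 1 and 1.72 without CD24negTomato+ replicate 1. Serpina1c was 7.001 to 16.4 CPM in CD24negTomato+ and 52.5 to 189 in CD24+Tomato+, a ratio of means of 9.96 with no overlap (7.51 to 11.5 in same-numbered pairs, and 5.62 without CD24+Tomato+ replicate 1). Serpina1a (5.92), Serpina1e (3.62) and Serpina1d (3.28) were also higher in CD24+Tomato+ without overlap. Without CD24+Tomato+ replicate 1, the highest library of each, these ratios were 3.17, 1.86 and 2.24. The sum was 76.2 to 192 against 153 to 525 CPM, with overlapping groups, yet higher in CD24+Tomato+ in 3 of 3 same-numbered pairs (2.003 to 2.74 times). Its ratio of means was 2.46, or 1.40 without CD24+Tomato+ replicate 1 and 3.68 without CD24negTomato+ replicate 1.

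Pzp had the opposite order. It was 27.1, 68.3 and 108 CPM in CD24negTomato+ and 4.61, 7.58 and 8.003 in CD24+Tomato+, so that the mean was 10.1 times higher in CD24negTomato+. These ratios set values across separately scaled tables and carry no test. In the Tomatoneg libraries that both tables hold, the CPM of a Serpina1 paralog differed between the tables by a factor of 0.976 to 1.005 and that of Pzp by 0.840, which is small beside the difference of Pzp between the populations.

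Levels of different genes were set side by side per kilobase of the longest coding transcript, and whether the authors' factors already depend on transcript length was not tested. The order in CD24negTomato+ by the median CPM per kilobase was Serpina1b (30.9), Pzp (14.6), Serpina1e (10.7), Serpina1c (5.15), Serpina1d (3.07) and Serpina1a (2.03). Over the 3 libraries Serpina1b did not overlap with Pzp, nor Serpina1c with Serpina1d, while the other neighbours in this order overlapped. Within each library, Serpina1e lay above Serpina1c and Serpina1d above Serpina1a, but Pzp lay above Serpina1e in replicate 2 alone. In CD24+Tomato+ the order was Serpina1c (45.1), Serpina1b (34.5), Serpina1e (21.5), Serpina1a (8.74), Serpina1d (7.58) and Pzp (1.62). There neighbouring paralogs overlapped between libraries, and Pzp lay below every paralog, at 0.985 to 1.71 against 5.39 or more. Within each library the order from Serpina1c through Serpina1b and Serpina1e to Serpina1a was the same, while Serpina1a lay below Serpina1d in replicate 3. In Tomatoneg Serpina1b (5.15 to 9.55) lay above the other 5 genes, none of which exceeded 2.25.

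Genes with the most similar profile over the 9 libraries were found as the smallest mean absolute difference between centred log2(CPM + 1) values. For the summed Serpina1 value they were Pcsk1n (0.31), Cdk5r2 (0.42), Bcam (0.45), Prnp (0.45) and Syt7 (0.46), against a median of 1.57 over 13234 genes. Pcsk1n encodes proSAAS, a peptide made in neuroendocrine cells, and Syt7 a synaptotagmin of regulated secretion. For Pzp they were Zg16 (0.50), Clca1 (0.55), Fer1l6 (0.68), Ptgdr (0.78) and Sptssb (0.80), against a median of 1.96. Zg16 and Clca1 encode secreted products of goblet cells. With a pseudocount of 0.1 in place of 1, 4 of the 5 genes nearest to Pzp were the same, but 0 of the 5 nearest to the Serpina1 sum, so the latter depend on the pseudocount. The libraries share the sort, so likeness over them is a description.

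**Figure D4:**
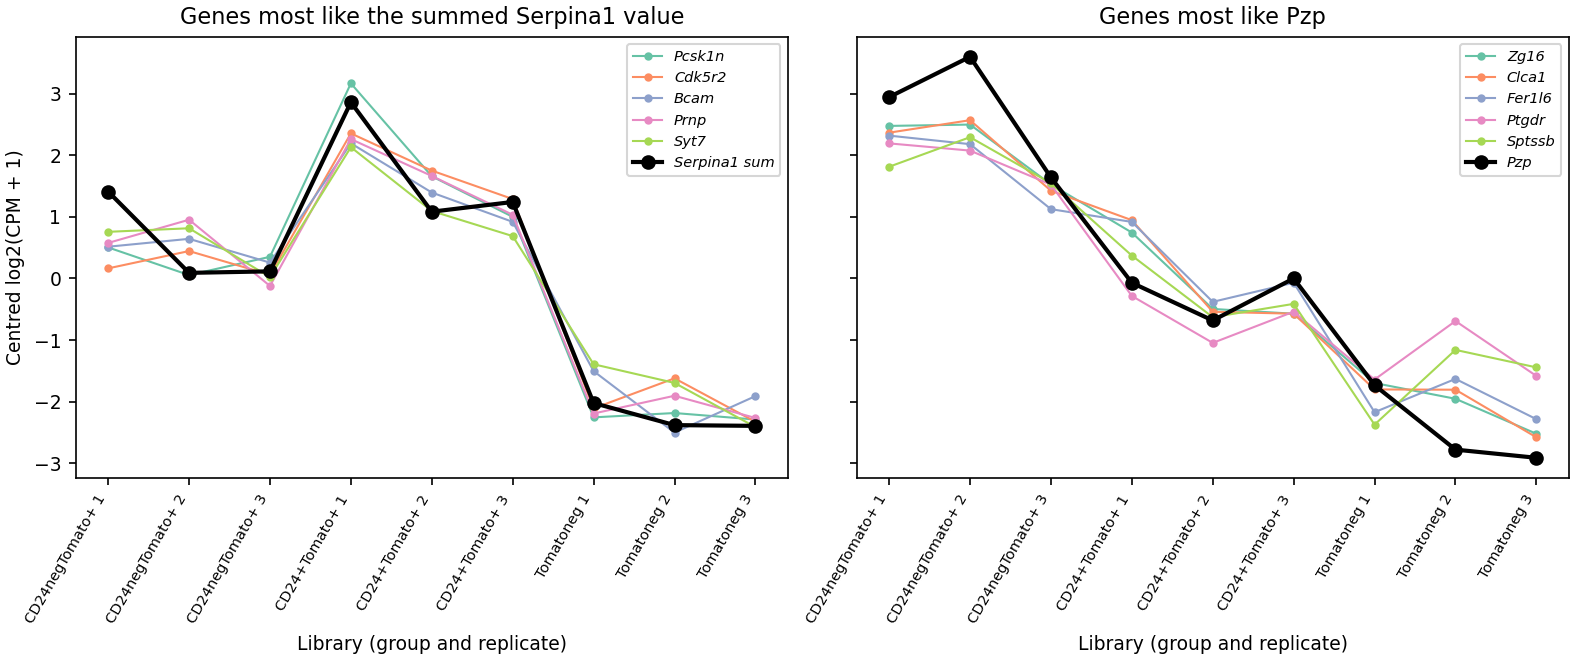
Lines give log2(CPM + 1), centred on each gene's mean (y axis), over the 9 libraries (x axis, by group and replicate) for the summed Serpina1 value (left, black) and Pzp (right, black) with the 5 genes nearest to each. The Serpina1 sum is highest in CD24+Tomato+ replicate 1 and Pzp in CD24negTomato+ replicate 2, and both are lowest in Tomatoneg.

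Levels of cell type markers are given beside these values. The sum of the 10 EEC markers was 99.8 to 285 CPM in Tomatoneg, 2924 to 5562 in CD24negTomato+ and 4564 to 9611 in CD24+Tomato+. The sum of the 8 goblet markers was 5231 to 8762 CPM in Tomatoneg, 69457 to 102337 in CD24negTomato+ and 36193 to 47236 in CD24+Tomato+. In the same order the 7 Paneth markers summed to 1378 to 5913, 645 to 1591 and 20570 to 69125 CPM. The 6 hepatocyte markers summed to 2.36 to 4.37, 15.8 to 21.5 and 31.5 to 44.4 CPM. Of these, Ahsg was listed at 0 in all 6 libraries of the CD24negTomato+ table, Fga was at or under the estimated value of 3 reads there, and Alb was 11.9, 9.55 and 1.67 in CD24negTomato+. In CD24+Tomato+ Alb was 15.7, 35.7 and 25.1 against 0, 4.81 and 0 in Tomatoneg. Ahsg was 1.65, 2.10 and 10.6 there, against 0 in Tomatoneg. Hepatocyte markers higher without overlap were 2 of 6 in CD24negTomato+ and 3 of 6 in CD24+Tomato+, beside 14.7% and 21.6% of all genes tested. In Tomato+ libraries most of the hepatocyte sum was Ttr, which EEC also express. The 6 pancreatic acinar markers summed to 1.98 to 7.93, 0.621 to 13.1 and 11.2 to 115 CPM. The 5 tuft cell markers summed to 55.4 to 88.2, 12.4 to 15.0 and 499 to 754 CPM, with all 5 lower in CD24negTomato+ and all 5 higher in CD24+Tomato+ than in Tomatoneg without overlap. The 7 enterocyte markers summed to 8442 to 30122, 9785 to 22380 and 1350 to 5238 CPM, and the 4 stem cell markers to 330 to 1126, 47.2 to 113 and 495 to 643 CPM. The part of each cell type in the inhibitor values was not tested.

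To place the 6 genes among other inhibitors, their targets and liver-type genes, 136 genes in 8 lists were examined, of which 134 were in the tables. They were tested with limma over all genes of each table. In CD24negTomato+ 71 passed the filter, 4 were higher and 1 lower than in Tomatoneg, and the median log2 fold change was 0.25, beside 0.999% higher, 0.32% lower and a median of 0.08 over all genes. With the replicate block the counts were 13 and 2, beside 4.34% and 2.96%. In CD24+Tomato+ 75 passed the filter, 17 were higher and 10 lower (24 and 15 with the block), and the median was 0.74, beside 8.02% higher, 4.89% lower and a median of 0.16 over all genes (10.8% and 9.95% with the block).

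Of the alpha-2-macroglobulin family 8 of 10 genes were in the tables and 3 passed the filter in each. Mug2 was listed at 0 in all 9 libraries, and A2m and Mug1 were listed at 0 in 8 of 9 with no value above 1.13. Cd109 reached at most 6.80 and the complement gene Hc at most 36.8, in CD24negTomato+ replicate 1. A2ml1 was 130, 191 and 218 in CD24+Tomato+ against 0, 17.5 and 19.2 in Tomatoneg and rose there (log2 fold change 4.62, SE 1.21, limma adjusted p = 0.0477). Its same-numbered pairs were 7.03, 3.38 and 3.44, the highest of them with the 0 of Tomatoneg replicate 1. A2ml1 was 25.1, 53.2 and 29.2 in CD24negTomato+ (log2 fold change 2.27, limma adjusted p = 0.412). The complement genes C3 and C4b did not pass in either comparison, with log2 fold changes of -0.79 and -0.13 in CD24negTomato+ and -0.79 and -0.80 in CD24+Tomato+.

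Of the 18 other clade A serpins, the relatives of Serpina1, only 2 in CD24negTomato+ and 3 in CD24+Tomato+ passed the filter. Serpina9 was called in CD24+Tomato+, at 60.2, 57.7 and 90.5 against 0, 12.0 and 2.98 in Tomatoneg (log2 fold change 4.21, limma adjusted p = 0.0438). It passed the filter through the Tomato+ group alone, so only a rise could be called. With the block 2 of the 3 were higher there. Of the 23 serpins of other clades 11 and 10 passed the filter. Serpinf2, the plasmin inhibitor alpha-2-antiplasmin, rose in both populations. It was 786, 866 and 819 in CD24negTomato+ against 214, 89.1 and 152 (log2 fold change 2.52, limma adjusted p = 0.0267). In CD24+Tomato+ it was 1828, 1424 and 1758 against 235, 92.9 and 163 (log2 fold change 3.43, limma adjusted p = 0.00385). In CD24+Tomato+ Serpini1, the tissue plasminogen activator inhibitor neuroserpin, rose by 3.04 on the log2 scale (limma adjusted p = 0.0461) and Serpinb6a, an intracellular serpin, fell by 1.15 (limma adjusted p = 0.0109). With the block 3 of these 10 serpins were higher and 2 lower in CD24+Tomato+, in place of 2 and 1.

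Of the other secreted protease inhibitors 10 were tested in each table. Ambp, the precursor of the inhibitor bikunin, was 1684, 1502 and 645 in CD24negTomato+ against 34.3, 35.5 and 18.2 in Tomatoneg (log2 fold change 5.34, SE 0.50, limma adjusted p = 0.00602). In CD24+Tomato+ it was 2747, 1508 and 697 (log2 fold change 5.54, SE 0.58, limma adjusted p = 0.00323). Spink4, a Kazal-type inhibitor made by goblet cells, rose by 2.16 in CD24negTomato+ (limma adjusted p = 0.0429) and by 3.15 in CD24+Tomato+ (limma adjusted p = 0.00676). Spink1, a trypsin inhibitor, fell by 1.94 in CD24+Tomato+ (limma adjusted p = 0.00355), as did the cystatin Cst6, by 1.74 (limma adjusted p = 0.0332). The counts in CD24+Tomato+ were 2 higher and 2 lower, or 3 and 3 with the block.

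The serine proteases, the class that Serpina1 products inhibit, moved both ways. Klk1, tissue kallikrein, was 9551, 10414 and 7934 in CD24negTomato+ against 570, 1792 and 1603 in Tomatoneg (log2 fold change 2.97, limma adjusted p = 0.0233). It was 8598, 11021 and 10358 in CD24+Tomato+ against 613, 1830 and 1679 (log2 fold change 3.01, limma adjusted p = 0.00746). Gzmb, a granzyme of cytotoxic lymphocytes, fell in CD24negTomato+ by 2.80 (limma adjusted p = 0.0477). In CD24+Tomato+ it fell by 4.17 (limma adjusted p = 0.00385). Also in CD24+Tomato+, Gzma fell by 3.88 (limma adjusted p = 0.00853), the mast cell protease Mcpt1 fell by 4.14 (limma adjusted p = 0.0311) and F2, prothrombin, rose by 5.73 (limma adjusted p = 0.0164). With the block 6 of 17 proteases were higher and 3 lower there, in place of 2 and 3, and in CD24negTomato+ 1 was higher and 2 lower, in place of 1 and 1. The 7 lymphocyte markers lay beside the granzymes at a sum of 46.8 to 156 CPM in Tomatoneg, against 7.003 to 11.0 in CD24negTomato+ and 6.92 to 11.8 in CD24+Tomato+, and their part was not tested.

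The list of receptors that clear protease-inhibitor complexes also holds the chaperone Lrpap1. Genes of this list moved in CD24+Tomato+ alone by the threshold, with no test of the difference between populations. Lrp1, the receptor for alpha-2-macroglobulin family and serpin complexes, was 3487, 1951 and 1579 against 11548, 6406 and 9586 in Tomatoneg (log2 fold change -2.01, limma adjusted p = 0.0145). Its chaperone Lrpap1 rose by 1.13 (limma adjusted p = 0.0293), the only higher call of the list. With the block 2 genes of the list were higher and 1 lower there. In CD24negTomato+ 0 of 6 genes of the list were called (1 higher at an unadjusted p under 0.05, and 0 with the block).

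Of the liver plasma proteins 4 rose and 2 fell of 12 tested in CD24+Tomato+, whereas with the replicate block 3 were higher and 4 lower. The 2 that fell, not among the 4 with the largest changes, were Apoa1 (log2 fold change -2.88, limma adjusted p = 0.0399) and Saa1 (log2 fold change -2.87, limma adjusted p = 0.0404). Apob and Apoc3, apolipoprotein genes named after their values were seen, were the 2 further lower calls with the block. Their log2 fold changes were -1.75 and -2.21, with limma adjusted p of 0.175 and 0.139, or 0.000784 and 0.000775 with the block. Afp, alpha-fetoprotein, was 2787, 1150 and 1005 against 0, 31.1 and 8.99 in Tomatoneg (log2 fold change 7.76, limma adjusted p = 0.00998). The carriers of retinol and thyroxine, Rbp4 and Ttr, rose by 7.05 (limma adjusted p = 0.0250) and 4.46 (limma adjusted p = 0.0102). Rbp4 was 2340, 2234 and 1709 against 0, 62.6 and 59.5 in Tomatoneg. In same-numbered pairs the log2 fold changes were 11.4, 5.17 and 6.65 for Afp and 11.2, 5.13 and 4.82 for Rbp4. The 0 of Tomatoneg replicate 1 thus raises both mean values. Hpx, the haem carrier hemopexin, was 28.9, 19.9 and 16.1 and listed at 0 in Tomatoneg (limma adjusted p = 0.0250, and 0.0525 with the block). It passed the filter on low values through the Tomato+ group alone, so only a rise could be called. Alb, albumin, was 15.7, 35.7 and 25.1 against 0, 4.81 and 0 in Tomatoneg (log2 fold change 3.81, limma adjusted p = 0.0631), and passed the filter in the same way. In CD24negTomato+ 0 of 10 were called by limma (3 higher at an unadjusted p under 0.05), but 4 were higher with the block. Afp was 2564, 892 and 255 there.

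Of 14 liver-type transcription factors, all tested in both tables, 4 rose and 1 fell in CD24+Tomato+ (4 and 2 with the block). Foxa2, a pioneer factor of endoderm, was 750, 609 and 660 against 122, 112 and 63.0 in Tomatoneg (log2 fold change 2.80, limma adjusted p = 0.00726). Its relatives Foxa1 and Foxa3 rose by 1.89 (limma adjusted p = 0.0146) and 2.67 (limma adjusted p = 0.00974). Prox1, a homeobox factor of liver and endocrine progenitors, rose by 2.996 (limma adjusted p = 0.0131). In CD24negTomato+ 0 of 14 were called by limma (4 higher at an unadjusted p under 0.05), and 5 were higher with the block. With 1 library left out, all 5 named calls in CD24negTomato+ and all 23 in CD24+Tomato+ kept their direction. With these fewer samples 0 of 5 named calls in CD24negTomato+ and 5 of 23 in CD24+Tomato+ (Ambp, Spink1, Spink4, Gzmb and Serpinf2) passed the threshold whichever library was left out.

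**Figure D5:**
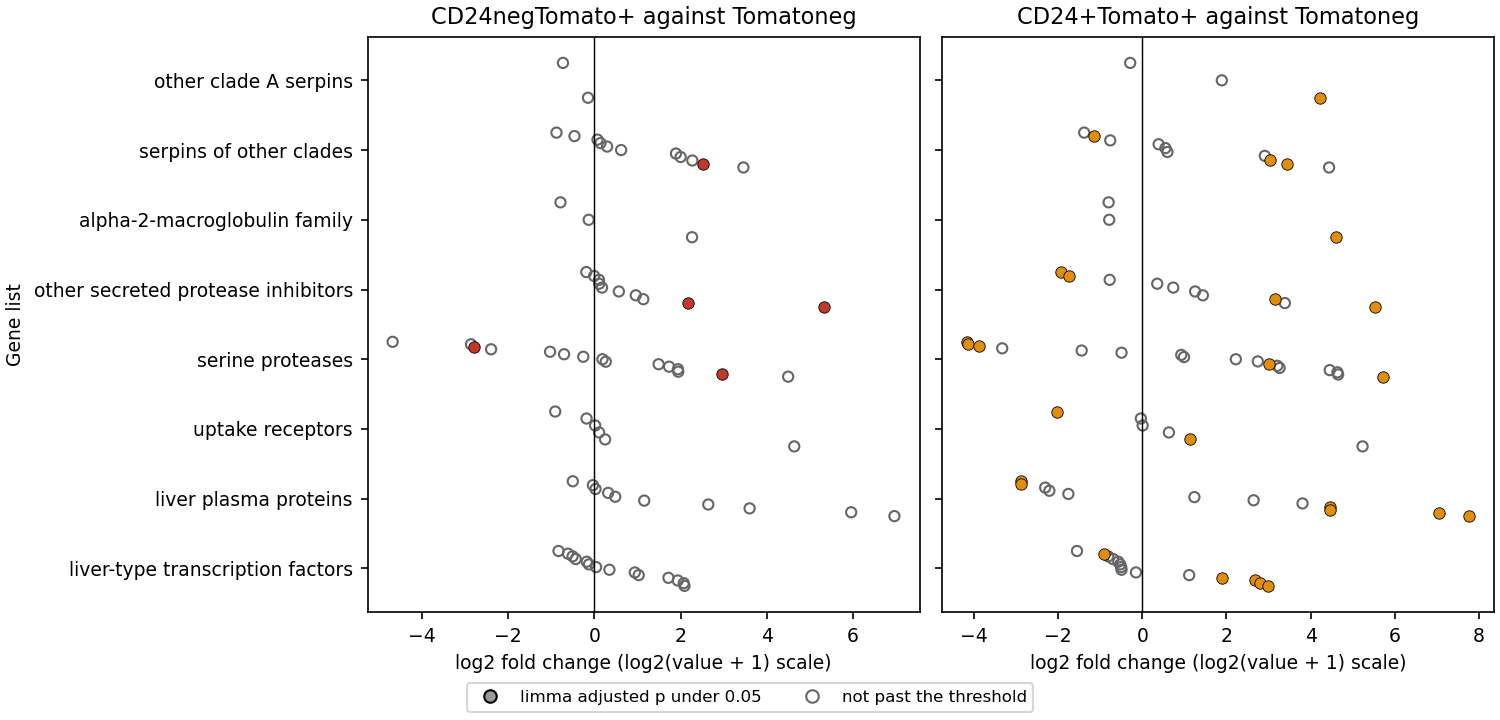
Points give the log2 fold change against Tomatoneg on the log2(value + 1) scale (x axis) of each tested gene in 8 lists (y axis) for CD24negTomato+ (left) and CD24+Tomato+ (right). Filled points passed a limma adjusted p of 0.05, 5 of 71 on the left and 27 of 75 on the right.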

How the data were processed

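Sorted small intestinal epithelial cells of 3 groups (3 libraries each) were poly-A selected and sequenced. Per the labels, the authors used bcl2fastq 2.19, kallisto 0.44.0 and DESeq2 with GRCm38, and deposited 2 tables of normalized counts (unit: signal), estimated counts divided by DESeq2 factors and scaled separately in each table. The ratio between the tables varied by gene in the shared libraries (5th to 95th percentile 1.01 to 1.17 in Tomatoneg replicate 1). Only 25.2% to 50.6% of low values were whole multiples of 1 read (tolerance 0.02), so no count test was used. There were 0 unused sample columns.

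Members, gene lists and tests were chosen with earlier results of these data known. Named were the members, up to 4 called genes per list and table, the alpha-2-macroglobulin family and the 5 genes most like each profile. Apoa1, Saa1, Apob and Apoc3 were named besides and are not among the named calls counted with 1 library left out. Fold changes are differences of mean log2(value + 1). limma 3.58.1 (R 4.3.3; lmFit, eBayes with trend) was run on each table keeping genes whose mean value reached 10, two-sided, with Benjamini-Hochberg adjustment over all genes at 0.05. The script was tested on simulated data. Same-numbered Tomato+ and Tomatoneg libraries deviated together (r = 0.30, 0.29 and 0.34 in the CD24negTomato+ table, 0.28, 0.18 and 0.38 in the other, across genes), so the numbers were taken to pair the samples, and counts of calls with the replicate block are given for each list where they change. Adjusted p-values and the choice of named genes come from the fit without the block unless stated, so they leave this pairing out. Depth in reads was estimated from the value of 1 read, taken as the most frequent low value of each library. It is approximate, since the scaling varied by gene, and a floor of 3 reads covers counting error only. CPM here are values divided by each library's sum of normalized counts, times 1000000. Transcripts, positions and 31-base words came from GENCODE M21 (97.7% of symbols matched) and promoters from RefSeq (GRCm38.p6). Alternatives were pseudocounts of 0.1 and 10, filters of 1 and 50, the replicate block, equalised totals, quantile normalization and leaving out each library.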

Additional observations from a re-analysis of the deposited data

Results flagged for a closer look

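Spink1, the trypsin inhibitor, had fold changes of opposite sign in CD24negTomato+ and CD24+Tomato+. It was 8253, 6188 and 7761 in CD24negTomato+ against 4758, 5364 and 4765 in Tomatoneg (log2 fold change 0.57, higher in 3 of 3 pairs, limma adjusted p = 0.229). In CD24+Tomato+ it was 1701, 1271 and 1187 against 5172, 5539 and 5045 (log2 fold change -1.94, lower in 3 of 3 pairs, limma adjusted p = 0.00355). The comparisons share the Tomatoneg libraries, and the difference between them was not tested.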

How the results depend on the processing

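The log2 fold changes of the summed Serpina1 value and of Pzp kept their direction in all 44 combinations of value, table and alternative. Nothing is read from this, since the groups do not overlap and the genes were chosen for the direction. Leaving out a library or changing the pseudocount could not turn it, and the replicate block leaves these values unchanged. Leaving out 1 library moved the sum from 2.66 to 3.34 in CD24negTomato+ and from 3.62 to 4.37 in CD24+Tomato+, and Pzp from 6.45 to 7.88 and from 3.32 to 4.76. Counts of calls depended on the setting, and the cause was not tested. In CD24negTomato+ (4 related genes higher and 1 lower, 134 and 43 of all genes) the replicate block gave 13 and 2 related genes and 582 and 397 of all genes. A pseudocount of 10 gave 11 and 2, and 314 and 101. A pseudocount of 0.1 gave 0 related and 19 of all genes lower, and quantile normalization 76 of all genes lower. In CD24+Tomato+ (17 and 10, and 1113 and 678) a pseudocount of 0.1 gave 731 of all genes higher and the block 1381 lower. Leaving out 1 library gave 0 to 12 related genes higher and 0 to 3 lower in CD24negTomato+ (17 to 617 and 1 to 442 of all genes), and 3 to 20 higher and 2 to 10 lower in CD24+Tomato+ (127 to 1620 and 41 to 858). The highest counts came without Tomatoneg replicate 1 and the lowest of all genes without replicate 2 of the Tomato+ group. Without CD24+Tomato+ replicate 1, 2 or 3 the related genes higher were 8, 3 and 6, and without CD24negTomato+ replicate 1, 2 or 3 they were 0, 0 and 1. With 1 library left out, C3 ranged from -1.82 to 0.30 in CD24negTomato+ (turning without CD24negTomato+ replicate 1 or Tomatoneg replicate 3) and from -1.80 to 0.0948 in CD24+Tomato+ (without Tomatoneg replicate 3), and C4b from -0.28 to 0.0009 in CD24negTomato+ (without Tomatoneg replicate 1). Ratios between the Tomato+ populations with 1 library left out were added after seeing the data. Values were low in Tomatoneg for Serpina1d, listed at 0, and for Serpina1a and Serpina1e, at most 6.66 and 11.7. There 3 reads were worth an estimated 3.23 to 4.29.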
